A study of Mus musculus with 40 samples.

Results

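The genes described here encode the CIDE proteins (Cidea, Cideb, Cidec) and the perilipins (Plin1, Plin2, Plin3, Plin4, Plin5), 8 of the 21938 protein-coding genes annotated on the mouse chromosomes 1 to 19, X and Y. They were chosen by name and not by a measured value, though with earlier results of these data known. Each was examined over its gene body and 20 kb on each side in the mouse build GRCm38. The data were ChIP-seq peak lists, that is, stretches of DNA enriched by an antibody against a histone mark over the input chromatin. There was 1 list for each of 4 marks (H3K4me3, H3K27ac, H3K4me1 and H3K27me3) in each of 8 mice, 32 lists and 457842 peaks in all. All mice were wild type C57BL/6N animals of 20 weeks, and the tissue was brown adipose tissue.

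Mice 1 and 2 (warm, NCD) stayed on the control diet and were not cold treated. Mice 4 and 5 (cold, NCD) had the same diet and spent 24 h at 4 °C. Mice 7 and 8 (warm, HFD) received high-fat diet from an age of 8 weeks for 12 weeks, and mice 10 and 11 (cold, HFD) received that diet and the cold treatment. Each temperature and each diet was thus represented by 4 mice. The whole tissue was dissociated without a sort, so a peak could come from any of its cells, and a smaller number of cells with a mark could not be told apart from less of the mark per cell. Of 8 brown adipocyte markers, all had H3K4me3 at a start site in at least 4 mice and 7 had H3K27ac, Prdm16 being the exception with 3 mice. Of 4 endothelial markers, all had both marks in at least 4 mice. None of the 5 macrophage, 4 hepatocyte or 3 neuron markers had either mark in 4 mice, and of the 5 skeletal muscle markers 1 did, Acta1 with H3K4me3 in 4 mice. These were the 4 NCD mice, and 0 HFD mice had the mark at Acta1. Pygm, another muscle marker, had H3K4me3 in 3 NCD and 0 HFD mice, while Myh4, Ckm and Myod1 had it in no mouse. Whether the share of muscle cells differed between the diets was not tested.

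The lists differed greatly in length. H3K4me3 lists held 13517 to 24104 peaks. H3K27ac lists held 3224 peaks in mouse 7, 14511 in mouse 10, 16889 in mouse 1 and 28433 to 40604 in the others. The H3K4me1 list of mouse 7 had 12 peaks and that of mouse 5 had 27568, and H3K27me3 lists held 20 to 6428. A peak missing from a short list may have gone undetected. For this reason the strength of a peak is given below as its top share, its rank from the top of its own list by −log10 q divided by the length of that list, in percent. A small top share thus means a strong peak.

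Lipid droplets are the triglyceride stores of a cell, and brown adipocytes keep many small ones that are broken down to feed heat production. Perilipins coat the droplet surface and govern the access of lipases, while CIDE proteins promote the fusion and growth of droplets. H3K4me3 marks the start sites of genes in use, H3K27ac marks active start sites and enhancers, H3K4me1 marks enhancers, and H3K27me3 is the mark of Polycomb repression.

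The sequences next to the start sites are shown for the 3 perilipin genes with the strongest H3K27ac peaks and for a pair of CIDE genes, Cidec, with H3K27ac in all mice, and Cideb, with the mark in none. All were read from the RefSeq sequence of GRCm38.p6 on the minus strand, on which these genes lie, and run 5′ to 3′ up to the base before the first annotated exon. Capitals mark matches to 4 short motifs searched on both strands, the TATA box TATAAA, the CCAAT box, which is the letters of its name, the CRE with the letters TGACGTCA and the E-box with CACGTG.
Plin2 promoter chr4:86670061-86670309: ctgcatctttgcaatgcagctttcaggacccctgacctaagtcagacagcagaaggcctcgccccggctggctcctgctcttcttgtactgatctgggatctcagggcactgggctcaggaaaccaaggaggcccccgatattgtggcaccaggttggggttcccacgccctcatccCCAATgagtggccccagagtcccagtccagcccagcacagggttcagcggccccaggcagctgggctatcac
Plin1 promoter chr7:79732904-79733026: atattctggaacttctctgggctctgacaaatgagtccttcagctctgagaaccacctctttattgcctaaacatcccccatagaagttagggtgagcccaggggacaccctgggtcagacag
Plin4 promoter chr17:56109804-56110032: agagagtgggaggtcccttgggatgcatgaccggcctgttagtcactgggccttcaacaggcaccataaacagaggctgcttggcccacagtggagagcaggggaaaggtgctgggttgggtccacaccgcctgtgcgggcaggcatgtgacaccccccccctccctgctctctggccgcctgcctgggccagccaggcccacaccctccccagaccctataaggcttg
Cidec promoter chr6:113435761-113436010: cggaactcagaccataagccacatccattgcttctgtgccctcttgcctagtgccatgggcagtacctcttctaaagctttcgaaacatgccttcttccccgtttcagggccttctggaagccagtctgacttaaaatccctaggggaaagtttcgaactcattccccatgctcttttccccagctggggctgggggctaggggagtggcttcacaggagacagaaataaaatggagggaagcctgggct
Cideb promoter chr14:55758459-55758674: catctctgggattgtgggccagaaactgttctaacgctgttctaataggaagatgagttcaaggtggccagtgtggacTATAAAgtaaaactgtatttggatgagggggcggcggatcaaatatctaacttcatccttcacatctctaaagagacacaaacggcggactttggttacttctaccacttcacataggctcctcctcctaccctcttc
The Plin2 promoter held CCAAT beginning at position −72 and the Cideb promoter TATAAA at −138, where −1 is the last base printed. The Plin1, Plin4 and Cidec windows held none of the 4. Among 32851 promoter windows of 250 bases, 33.8% held the CCAAT box, 12.4% the TATA box, 1.55% the CRE and 6.02% the E-box. Those windows were not cut at exons. The printed ones were, to 123 bases for Plin1, 216 for Cideb, 229 for Plin4 and 249 for Plin2, so the shares are not matched in length. A match describes letters only.

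Also shown are 300 bases around the middle summit of 2 intergenic H3K27ac regions upstream of members, those found in the most mice. The first was present in all 8 mice and lay 19.9 kb upstream of Plin2, and the second in 7 mice 3.07 kb upstream of Cidec. Here too capitals mark motif matches, with positions counted from the first base printed.
Plin2 upstream region chr4:86689764-86690063: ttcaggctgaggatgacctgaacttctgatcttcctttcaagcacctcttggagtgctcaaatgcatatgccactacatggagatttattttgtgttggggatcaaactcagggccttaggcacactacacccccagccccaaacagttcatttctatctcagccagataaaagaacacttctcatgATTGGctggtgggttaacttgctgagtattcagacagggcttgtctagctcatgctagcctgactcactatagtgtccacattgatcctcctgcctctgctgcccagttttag
Cidec upstream region chr6:113438678-113438977: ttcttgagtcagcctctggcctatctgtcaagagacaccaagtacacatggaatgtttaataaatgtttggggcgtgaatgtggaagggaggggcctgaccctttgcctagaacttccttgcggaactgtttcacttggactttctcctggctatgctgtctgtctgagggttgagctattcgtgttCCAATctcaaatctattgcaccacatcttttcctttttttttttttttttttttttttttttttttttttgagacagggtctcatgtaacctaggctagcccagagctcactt
Each held the CCAAT box at position 188, on the opposite strand in the Plin2 region. Among 36591 windows of 300 bases around distal H3K27ac summits, 31.2% held the CCAAT box, 13.8% the TATA box, 4.01% the E-box and 0.251% the CRE.

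At the start sites, 7 members had H3K27ac in at least 3 mice and Cideb in none. A peak was counted when its summit lay within 1000 bp of an annotated start site. By this count 6 of 8 members (Cidea and Plin1 to Plin5) had H3K4me3 in all 8 mice, against 41.5% of all 21938 genes. For H3K27ac the count was 5 of 8 members (Cidea, Cidec, Plin1, Plin2 and Plin4), against 3.11% of all genes. That share depended on mouse 7, whose H3K27ac list held only 3224 peaks. Without mouse 7 the count was 6 of 8 members, against 3362 of the 21938 genes. No member had an H3K27me3 peak at its start site in any mouse, where 6.23% of all genes had one in at least 1 mouse. H3K4me1 lay at the start site of Cidea, Cidec, Plin2 and Plin4 in 1 mouse each and of the others in none. In at least 1 mouse this mark was thus at 4 of 8 members, against 18.6% of all genes.

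Among the CIDE genes, Cidea, a widely used marker of brown fat, had both marks in every mouse. Its H3K27ac top share was 2.08%, 6.27%, 9.27% and 2.64% in the warm mice 1, 2, 7 and 8. In the cold mice 4, 5, 10 and 11 it was 1.03%, 4.42%, 1.37% and 1.14%. The cold and warm values overlapped, through mouse 5. Its H3K4me3 peak was further down, between 14.9% and 47.1% with a median of 30.5%. The annotated noncoding transcript B430212C06Rik starts 21 bp from Cidea, so a start-site peak of one could not be told apart from that of the other.

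Cidec, which drives the exchange of lipid between touching droplets, had H3K27ac in all 8 mice. Its top share was 6.24%, 1.48%, 41.1% and 2.38% in the warm mice 1, 2, 7 and 8 and 1.67%, 7.17%, 14.6% and 2.33% in the cold mice 4, 5, 10 and 11. The weakest values came from mice 7 and 10, the mice with the shortest H3K27ac lists. H3K4me3 was counted in 6 mice, with a top share of 20.9% to 69.1%. In mice 4 and 5 an H3K4me3 peak covered the Cidec start site too, with its summit 1595 and 1584 bp inside the gene, so that by overlap the mark was present in all 8. These H3K4me3 peaks were wide, 3199 to 5996 bp in 7 mice and 661 bp in mouse 8.

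Cideb, best known from liver, where it acts in lipoprotein secretion, differed from the other 7. It had H3K4me3 in mice 1, 2 and 11, all near the bottom of their lists at 98.2%, 93.1% and 72.1%, with widths of 306, 228 and 503 bp. H3K27ac was found in none of the 8 lists at its start site. The single place with H3K27me3 near any member was also here, as 2 peaks in mouse 5 that lay 7.89 and 8.81 kb upstream of Cideb, near Ltb4r1. Mouse 5 had the longest H3K27me3 list, with 6428 peaks. Within the same window the start sites of Dhrs1 and Nop9 carried H3K4me3 in all 8 mice and H3K27ac in 6.

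Among the perilipins, Plin2, found on droplets of nearly all cell types, had the strongest peaks of the family by median. Its H3K27ac top share was 0.494%, 0.250%, 1.15% and 0.290% in the warm mice 1, 2, 7 and 8 and 0.0442%, 0.928%, 0.0827% and 0.0690% in the cold mice 4, 5, 10 and 11. In mice 5, 7 and 11 Plin1 was nearer the top than Plin2, and in mouse 5 Plin4 was nearer than both, at 0.253%. Of the 682 genes with H3K27ac at the start site in all mice, Plin2 was number 22 by median top share. The summits fell 573 to 610 bp inside the gene in all 8 mice. Its H3K4me3 peak was the strongest of the members by median, at 4.16% (1.62% to 18.9%).

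Plin1, the adipocyte perilipin that holds back lipolysis until it is phosphorylated, was number 28 of the 682. Its H3K27ac top share was 2.69%, 1.84%, 0.434% and 0.346% in the warm mice 1, 2, 7 and 8. The cold mice 4, 5, 10 and 11 had 0.170%, 0.736%, 0.365% and 0.0616%. Cold and warm values overlapped, and so did those of the diets. Its H3K4me3 top share ran from 2.01% in mouse 7 to 42.3% in mouse 5.

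Plin4, a perilipin of adipocytes, was number 42 of the 682. Its H3K27ac top share was 0.681%, 1.10%, 3.18% and 1.05% in the warm mice 1, 2, 7 and 8. In the cold mice 4, 5, 10 and 11 it was 0.309%, 0.253%, 0.286% and 0.49%. All 4 cold mice were thus nearer the top of their lists than all 4 warm mice. Its H3K4me3 peak, by contrast, was the weakest of the perilipins by median, at 46.0% (38% to 52.1%). Cidea was number 189 and Cidec number 290 by the same order.

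Plin5, the perilipin of oxidative tissues, which tethers droplets to mitochondria, had H3K27ac in 7 mice, all but mouse 7. The top share ranged from 1.16% to 19.8% with a median of 11.3%. Its H3K4me3 top share was 44.9%, 46.3%, 41.7% and 41.0% in the warm mice 1, 2, 7 and 8. It was 27.7%, 40.5%, 24.9% and 19.1% in the cold mice 4, 5, 10 and 11. Cold and warm did not overlap, but mouse 5 missed the warm range by less than 1 percentage point.

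Plin3, which is broadly expressed and moves between cytosol and droplets, had H3K4me3 in all mice at 4.24% to 45.3%. An H3K27ac peak reached within 1000 bp of its start site in all 8 mice. The summit was within 1000 bp only in mice 7, 8 and 10, at 711 to 755 bp downstream. In mice 1, 2, 4, 5 and 11 it was 1051 to 1074 bp upstream, in an intron of a longer Plin3 transcript. The 3 mice were all on HFD and none on NCD (Fisher's exact test, two-sided, p = 0.143, adjusted p = 1). In mice 7, 8 and 10 the same stretch was called as separate peaks, with another of 263, 1268 and 418 bp upstream beside the start-site peak of 742, 2824 and 1718 bp. In mouse 8 that upstream peak was the stronger, at 0.867% against 16.7%. In the other 5 mice 1 peak of 4095 to 4829 bp covered both places.

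**Figure D1:**
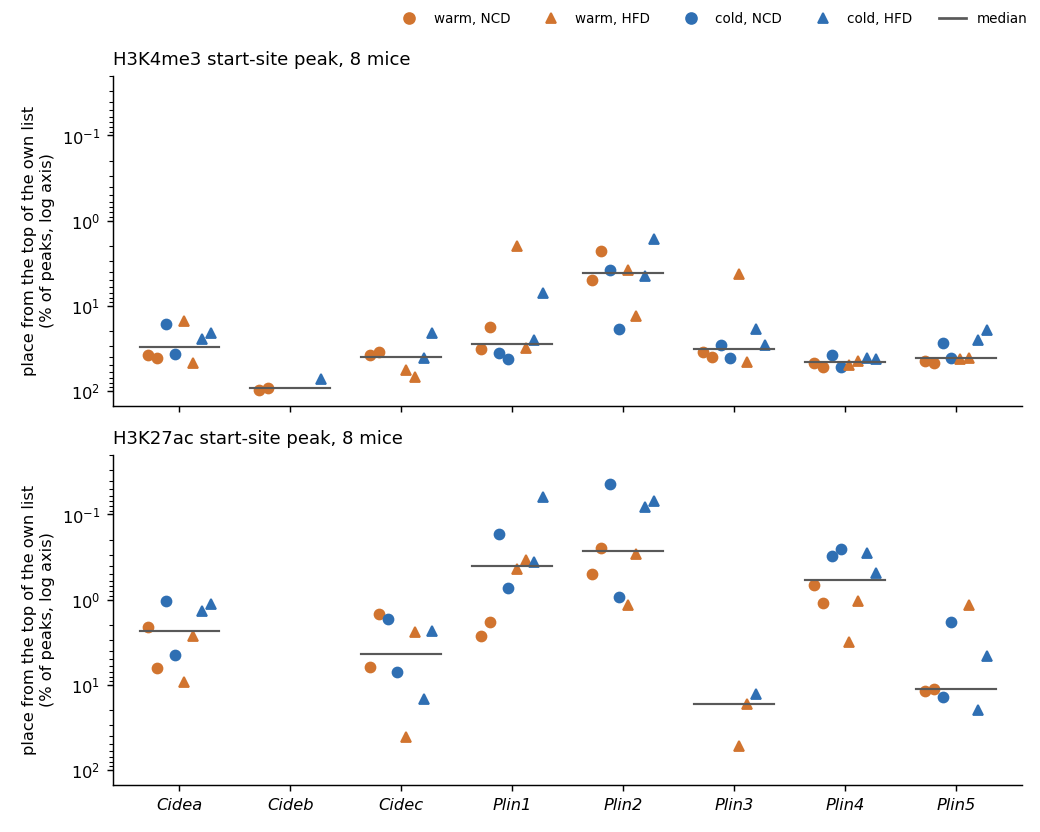
Top share of the start-site peak (percent, log axis, nearer the top of the list is a smaller value) for each member in the H3K27ac and H3K4me3 lists, with 1 point per mouse by temperature and diet. In H3K27ac, Plin2, Plin1 and Plin4 stood within the top 3.18% in every mouse, while the same genes in H3K4me3 spread from 1.62% to 52.1%.

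Peak width gave a similar order. The Plin2 H3K27ac peak was 2152 bp wide in mouse 7 and 8179 to 11967 bp in the other 7 mice. By width it was in the top 1.38% of each list, with a median of 0.0872%. The Plin1 peak was 3311 to 9457 bp wide. The Plin4 peak was widest in the cold mice 5, 11 and 4, at 10922, 8959 and 7693 bp, but 2436 bp in the cold mouse 10 and 726 to 4723 bp in the warm mice. Mouse 7, with the shortest H3K27ac list, had the narrowest H3K27ac peak for each of the 6 members with a peak there.

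**Figure D2:**
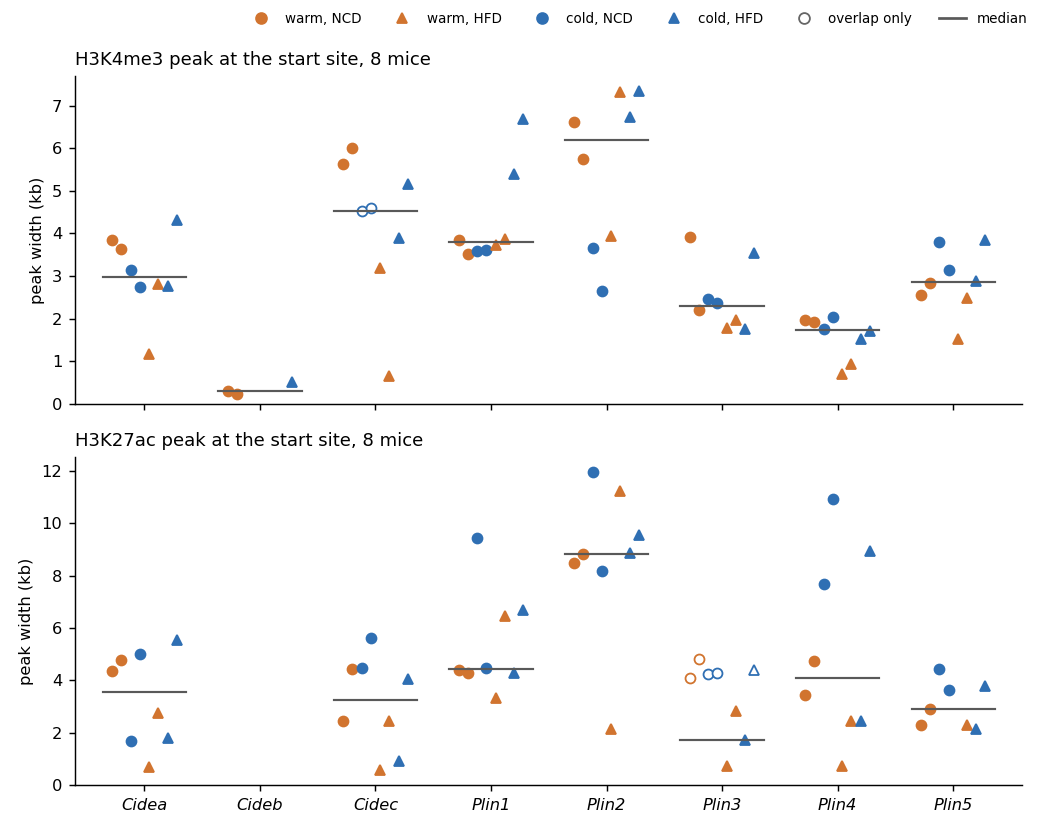
Width (bp) of the peak at the start site of each member in the H3K27ac and H3K4me3 lists, 1 point per mouse. The H3K27ac peak of Plin2 reached 11967 bp in mouse 4, and the H3K4me3 peak of Cideb, found in 3 mice, was 228 to 503 bp.

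The stronger standing in H3K27ac than in H3K4me3 was compared gene by gene. The log10 top share of the 8 H3K27ac lists was set against that of the 8 H3K4me3 lists with limma, for the 637 genes with start-site peaks of both marks in all mice. All 4 members in this set, Plin4, Plin1, Plin2 and Cidea, were nearer the top in H3K27ac. Of all 637 genes, 195 passed in this direction, or 30.6%, and 226 in either, and the median gene had a difference of −0.29. For Plin4 the difference in log10 top share was −1.85 ± 0.18 (SE), a 71.3-fold nearer place (limma, adjusted p = 3.88e-08). Only 2 of the 637 genes had a larger difference in that direction. The values given are from a fit that did not pair the lists of the same mouse. With each mouse as a block, 220 genes passed in that direction, among them all 4 members.

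Plin1 differed by −1.58 ± 0.23 (38.3-fold, limma, adjusted p = 2.27e-05) and was in place 7. Plin2 differed by −1.31 ± 0.22 (20.5-fold, limma, adjusted p = 7.56e-05) in place 30. Cidea differed by −1.02 ± 0.18 (10.5-fold, limma, adjusted p = 0.000108) in place 64. Each of the 4 stood nearer the top in H3K27ac in 8 of 8 mice. Of the members outside the 637, H3K27ac was nearer the top in 6 of 6 mice for Cidec, 7 of 7 for Plin5 and 2 of 3 for Plin3.

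A gene entered this comparison only if mouse 7, with its list of 3224 H3K27ac peaks, had a start-site peak, so the set leaned towards genes strong in H3K27ac. Without mouse 7 the set grew to 3223 genes with a median difference of −0.01. Plin4 then differed by −1.95 (limma, adjusted p = 2.28e-09), Plin1 by −1.71, Plin2 by −1.42 and Cidea by −1.14. Plin5 joined the set with −0.73 ± 0.18 (limma, adjusted p = 0.00322). All 5 members thus passed, and 19.1% of the 3223 genes passed in this direction. Ranking each gene among the 637 shared genes in place of the whole list gave −1.04 for Plin4, −1.02 for Plin1, −0.98 for Plin2 and −0.44 for Cidea. All 4 passed, and 17.4% of the 637 genes passed in this direction.

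**Figure D3:**
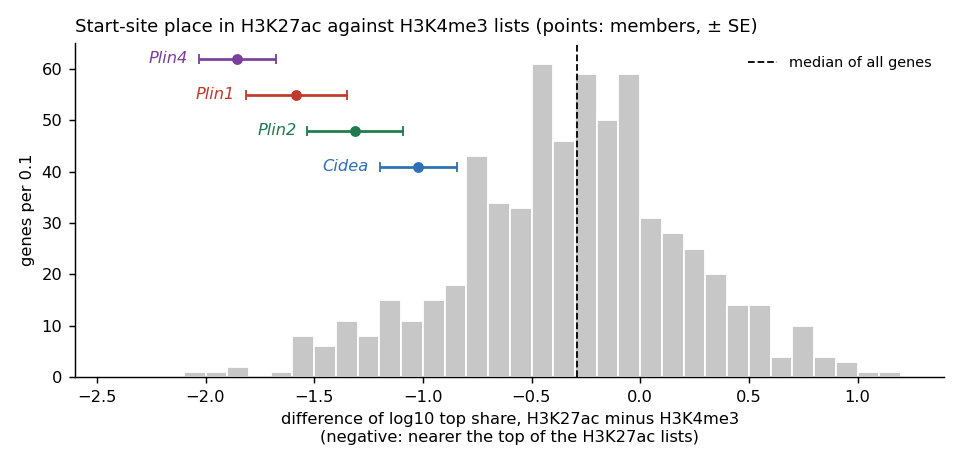
Histogram of the difference of log10 top share, H3K27ac minus H3K4me3, over 637 genes (bars, genes per 0.1), with the median of all genes as a dashed line and the 4 members as points with their SE. The members lie between −1.85 and −1.02, to the left of the median of −0.29.

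Temperature was then compared over 4 cold and 4 warm mice, and diet over 4 HFD and 4 NCD mice. No member passed in either. For presence at the start site, 0 members had a peak in all 4 mice of one side and in 0 of the other, for both marks and both factors. Over all genes with a peak in any mouse this held by temperature for 0.0637% in H3K4me3 and 0.102% in H3K27ac. By diet it held for 0.177% in H3K4me3 and 0.13% in H3K27ac. With 4 mice against 4 the smallest p of Fisher's exact test is 0.0286, and no gene could pass after adjustment over all genes.

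For the top share, limma with temperature and diet as terms was fitted over 9106 genes in H3K4me3 and 682 in H3K27ac. In H3K4me3, 0% of genes passed by temperature and 0.011%, 1 gene, by diet. In H3K27ac it was 0% by either factor. An unadjusted p under 0.05 was reached by temperature in 788 and 21 genes and by diet in 897 and 54 genes, in H3K4me3 and H3K27ac respectively. The 6 members in H3K4me3 had limma adjusted p values from 0.580 to 0.995 by temperature and from 0.573 to 0.930 by diet. The 5 in H3K27ac had 0.981 by temperature and 0.650 to 0.97 by diet. For the interaction of temperature and diet 0% of genes passed in either mark, with an unadjusted p under 0.05 in 505 and 9 genes, and every member's limma adjusted p was 1.00.

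The differences by temperature in H3K27ac, cold minus warm in log10 top share, were −0.61 ± 0.34 (SE) for Plin1, −0.59 ± 0.33 for Plin4, −0.56 ± 0.36 for Plin2, −0.41 ± 0.34 for Cidea and −0.09 ± 0.36 for Cidec. The median of all 682 genes was itself shifted by −0.20, and by 0.26 for diet, HFD minus NCD. Less that shift the differences ran from −0.41 for Plin1 to 0.11 for Cidec. In simulated H3K27ac data 0% of genes with a shift of 0.5 passed this fit, and 44.5% with a shift of 1. A change of the size seen here could thus be missed. The warm HFD group included the short list of mouse 7. By diet, Plin1 had the lowest value of the members in both marks, −0.57 ± 0.34 in H3K27ac and −0.47 ± 0.25 in H3K4me3, and neither passed.

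Plin4 in H3K27ac and Plin5 in H3K4me3 were the members whose cold and warm mice did not overlap, both with the cold mice nearer the top. This was 1 of 5 members in H3K27ac against 3.81% of all 682 genes, and 1 of 6 in H3K4me3 against 5.39% of all 9106. The exact permutation test gave p = 0.0286 unadjusted for each, the smallest it can give with 70 assignments of 4 against 4. By limma, adjusted p was 0.981 for Plin4 and 0.580 for Plin5. Without mouse 7 and ranked among shared genes, Plin4 differed by −0.52 ± 0.20 (SE; limma, adjusted p = 0.810). By diet no member's groups were apart, against 3.37% of genes in H3K27ac and 4.54% in H3K4me3.

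Distal H3K27ac was abundant around every member but Cideb. A distal peak had its summit more than 1000 bp from every start site of any gene among the basic GENCODE transcripts. Peaks of different mice that shared at least 1 bp were merged into a region. The annotated Plin3 gene reaches up to chr17:56292873, but the only Plin3 start site used was chr17:56290511. A Plin3 region with its median summit at chr17:56292647 was therefore counted as distal. The windows of the 8 members held 62 such regions, 15 for Cidea, 11 for Plin2, 10 for Cidec, 8 for Plin3, 7 for Plin4, 6 for Plin1, 5 for Plin5 and 0 for Cideb. The windows of Plin4 and Plin5, neighbours on chromosome 17, overlap, so a region was assigned to the nearer start site. The peak numbers per window were not assigned in this way, and a peak in both windows was counted for both genes. In single mice the Cidea window held 4 to 12 distal peaks, with a median of 7. Only 2.17% of all genes had a median as high. The medians were 6 for Plin2 (2.95% of genes as high), 5 for Plin3 and Plin5 (4.14%), 4.5 for Plin4 (4.75%), 4 for Plin1 (5.97%) and 3.5 for Cidec (7.10%), where the median over all genes was 0. Windows of long genes are larger, and this was not adjusted for.

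Of the 62 regions, 4 were present in all 8 mice, against 3.2% of the 36594 distal regions of the genome, and 28 were present in 1 mouse. A wide peak with its summit at a start site does not count as distal, even where it reaches over such a region. With any overlapping H3K27ac peak counted, 9 regions were covered in all 8 mice and 17 in 1, and 22 of the 62 were covered in more mice than had a distal peak. For these counts, and for the regions present in 1 mouse, the share over the genome was not computed. The strongest of the 4 lay 19.9 kb upstream of Plin2 at chr4:86688048-86692278, between genes, and is printed above. Its top share was 1.69%, 0.909%, 0.605% and 0.130% in the warm mice 1, 2, 7 and 8 and 0.0688%, 1.04%, 0.779% and 0.0911% in the cold mice 4, 5, 10 and 11. Its median was 0.692%, against 0.270% at the start site of Plin2 itself. The region overlapped H3K4me1 in 4 mice and H3K4me3 in 3.

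The region of all 8 mice near Cidea lay 8.14 kb upstream of its start site in an intron of B430212C06Rik and spanned 11798 bp after merging. Its top share ran from 2.36% to 16.5%. H3K4me3 overlapped this region in 8 mice and H3K4me1 in 5. Another pair was at Plin3. One lay towards the 3′ end of the gene at chr17:56277055-56282121, with a top share of 3.23% to 9.71% in 7 mice and 68.6% in mouse 7. The other was the region at the start site already described, chr17:56287110-56292012, with a median summit 1051 bp upstream. It counts as distal because each of the 8 mice had a peak there with its own summit over 1000 bp from every start site used. H3K4me3 overlapped the 3′ region of Plin3 in 2 mice and the start-site region in 8, and H3K4me1 overlapped each in 4. Regions in 7 mice, all but mouse 7, lay 3.07 kb upstream of Cidec, 2.19 kb upstream of Plin5 at an exon of Lrg1, and 21.4 kb downstream of the Plin3 start site. In this order, H3K4me3 overlapped them in 0, 7 and 8 mice and H3K4me1 in 1, 2 and 0.

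The region upstream of Cidec, chr6:113437473-113439950, had a top share of 56.5%, 21.7% and 43.1% in the warm mice 1, 2 and 8. In the cold mice 4, 5, 10 and 11 it was 10.8%, 10.8%, 42.1% and 23.7%. Cold and warm values overlapped, and the top shares of single distal regions were not tested. A region 1.54 kb upstream of Plin1, chr7:79733802-79735932, had a distal peak in all 4 warm mice and in the cold mice 5 and 10. In the cold mice 4 and 11 it was overlapped by wider H3K27ac peaks whose summits lay within 1000 bp of an annotated start site, so that an H3K27ac peak reached over it in all 8. The top share of the distal peaks ran from 3.28% in mouse 8 to 35.3% in mouse 7.

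H3K4me1, the enhancer mark, overlapped 25 of the 62 regions in at least 1 mouse. H3K4me3 overlapped 30 and H3K27me3 none. The shares of all distal regions of the genome with such overlaps were not computed, so these counts only describe the member windows. The member windows held 103 H3K4me1 peaks, 82 of them over an H3K27ac peak of the same mouse. These came from mouse 5 (44), mouse 2 (35), mouse 4 (12), mouse 8 (7) and mouse 11 (5). Mice 1, 7 and 10, whose H3K4me1 lists held 592, 12 and 18 peaks, had none. No comparison of H3K4me1 between groups was made for this reason.

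**Figure D4:**
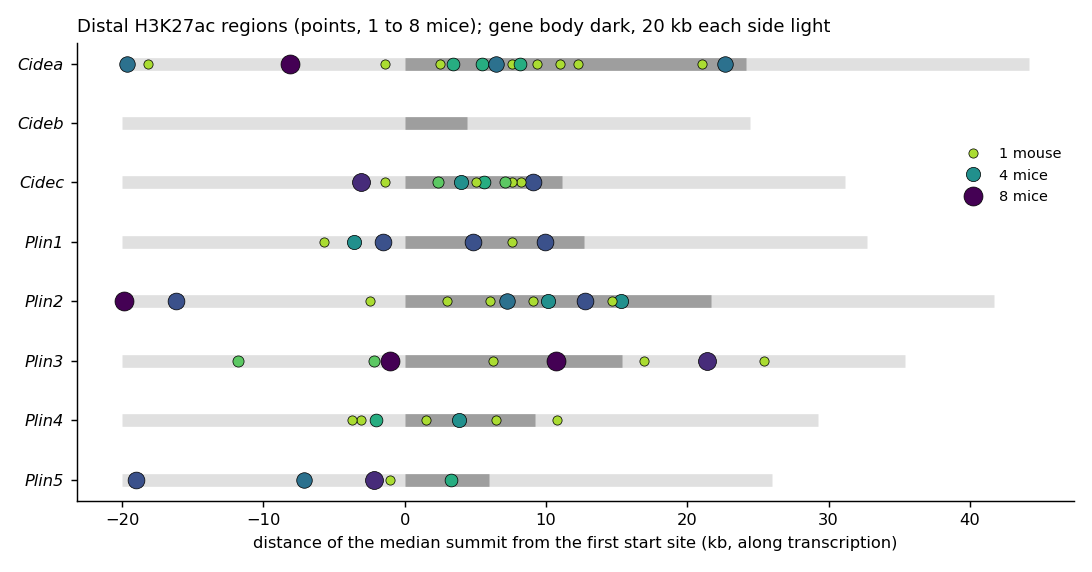
Distal H3K27ac regions around each member by distance of the summit from its start site (kb, negative is upstream) and by number of mice with a distal peak. Regions in all 8 mice are seen for Cidea, Plin2 and Plin3, and Cideb has no region.

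No distal region of a member had a peak in all 4 mice of one temperature or diet and in 0 of the other 4. Over the genome this held for 0.385% of regions by temperature and 0.0984% by diet. An intron region of Cidea 5.44 kb downstream of the start site had a peak in 3 cold mice and 0 warm mice. Fisher's exact test, two-sided, gave p = 0.143 before adjustment. These peaks were weak, with top shares of 83.4% to 89.5% and widths of 198 to 480 bp. The number of distal peaks in a member's window per 10000 peaks of the list was tested by exact permutation over the mice. No difference passed for the 7 members with a peak (exact permutation test, p from 0.0857, adjusted p = 1), and the direction turned with the scaling. Per 10000 peaks the mean of cold mice was below that of warm mice for all 7 members, but without mouse 7 for 4 and in unscaled peak numbers for 2. The mean of HFD mice was above that of NCD mice for 7, for 6 and for 5 members in the same order. Most of these peaks were shared by the windows of Plin4 and Plin5, so the directions of this pair were not independent. Over 10632 genes 0% passed by temperature and 0% by diet, with an unadjusted p under 0.05 in 336 and 281 genes. For Cidea the mean per 10000 peaks was 2.60 in cold and 6.24 in warm mice, 3.15 in warm mice without mouse 7, and unscaled it was 7.5 in cold and 7.25 in warm mice.

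Other genes of lipid droplets were read from a list of 30. Of these, 24 had H3K4me3 and 6 H3K27ac at the start site in all mice, with H3K27ac in 7 or more mice for 16. The 6 were Lipe, Mgll, G0s2, Dgat1, Acsl1 and Ces1d. Lipe, hormone-sensitive lipase, had the strongest H3K27ac by median with a top share of 0.184%. It was followed by G0s2, an inhibitor of triglyceride lipase, at 1.11% and Ces1d, a carboxylesterase, at 1.46%. Fitm2, which acts in droplet formation, was at 3.47%, Pnpla2, adipose triglyceride lipase, at 4.52% and Acsl1, an acyl-CoA synthetase, at 4.85%. Fitm1, Hsd17b13 and Clstn3 had neither mark in any mouse, and no gene of the list had H3K27me3.

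No gene of the list passed by temperature or diet in limma, 0 of 24 in H3K4me3 and 0 of 6 in H3K27ac. Between the marks, 3 of 5 tested genes passed, all nearer the top in H3K27ac, and the median of the 5 was −0.60 against −0.29 over all 637. They were G0s2 (−1.38 ± 0.21 SE, limma, adjusted p = 2.88e-05), Ces1d (−1.12 ± 0.26, limma, adjusted p = 0.00166) and Acsl1 (−0.60 ± 0.19, limma, adjusted p = 0.0142).

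The genes most like each member over the 8 H3K27ac lists were found by the Euclidean distance of log10 top shares among the 682 genes. For Plin1 they were Lipe (1.02), Nr1d1 (1.47) and Plin2 (1.50). For Plin2 they were Clec2d (1.27), Nr1d1 (1.32) and Lipe (1.46). Plin4 was most like Ech1 (0.901), G0s2 (1.04) and Acacb (1.09). Cidea was most like Hexim1 (0.543), Cdo1 (0.715) and Chchd2 (0.770), and Cidec most like Tomt and Lamtor1 (0.478 each) and Isoc2b (0.513). Tomt and Lamtor1 had the same distance, so the same peaks may have been counted for both, which was not examined. The distances are a description over lists that differ in length.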

How the data were processed

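ChIP-seq peak lists of 32 libraries from brown adipose tissue of 8 mice were used, and the 8 inputs only through them. The authors trimmed reads with cutadapt, aligned them to GRCm38 with Bowtie2 and called peaks with MACS2 against input, per library. The sources used here give no versions. The deposited lists give for each peak a fold enrichment (a ratio to local background) and −log10 q values computed by the authors. These are relative to each library's own depth, so peaks were compared by rank within the list. Read depth is unknown. No lists were identical. The series text names the tissue inguinal and the methods interscapular, and the methods can be read as a pair of mice per experiment. P-values measure the spread between mouse numbers.

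Start sites and exons came from GENCODE M21 (basic transcripts) on GRCm38, and sequences from RefSeq GRCm38.p6. Ranks were tested with limma 3.58.1 (R 4.3.3) on log10 top share with Benjamini-Hochberg adjustment over all genes tested, after a test on simulated data. There, 200 genes were shifted by temperature. With a shift of 0.5 in log10 top share, 0% of them passed in either mark. With a shift of 1, 65% passed in H3K4me3 and 44.5% in H3K27ac. Presence was tested with Fisher's exact test and peak numbers by exact permutation (scipy 1.17.1), two-sided, with a threshold of 0.05. Members and gene lists were chosen with earlier results of these data known. Named are all members, neighbours with start-site peaks in a window, at most 6 genes of the droplet list by H3K27ac place, those passing a test, and the 3 genes most like each member. H3K4me3 and H3K27ac libraries of the same mouse come from the same animal, and the correlations of their deviations from the group means were 0.184 to 0.490 over the 8 mice. Alternatives were the start-site distance, window size, ranking measure, q threshold, a replicate block and leaving out each mouse. Leaving out mouse 7 with ranks among shared genes, and mice 7 and 10 together, were chosen after seeing the data.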

Additional observations from a re-analysis of the deposited data

Results flagged for a closer look

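The highest or lowest mouse of a group stood apart from the others in 4 of 55 groups tested with Dixon's criterion, where chance gives 2.75, or about 1 in 20. In H3K4me3, the Cidea start site of mouse 4 had a top share of 16.3% among the NCD mice, against 36.5% to 40.9% in the other 3. In H3K27ac, the Plin1 start site of mouse 11 had 0.0616% among the HFD mice, against 0.346% to 0.434%. In H3K4me3, the Plin3 start site of mouse 7 had 4.24%, against 18.6% to 45.3% in the other 7 mice and 34.8% to 45.3% in the other warm mice. Mouse 7 had the shortest H3K4me3 list, and mouse 11 the longest H3K27ac list. The part of list length in these values was not tested.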

How the results depend on the processing

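Under the alternatives, 186 recomputed counts stayed within 1.5 times the value reported and 8 did not. Most of the 186 were counts of 0 that remained 0, in the comparisons by temperature, diet and their interaction. For these a factor of 1.5 has no meaning, so the tally does not measure how firm the results are. With the summit within 500 bp of a start site, 2 members in place of 6 had H3K4me3 and 1 in place of 5 had H3K27ac in all mice. At −log10 q of at least 5, 34 distal regions were left of 62. By the unadjusted exact permutation test, 1 member passed by temperature in H3K4me3 (Plin5) and 1 in H3K27ac (Plin4), in place of 0. Leaving out each mouse, members whose start-site presence split by diet ranged from 0 to 1, with 1 without mouse 11 (Plin3 in H3K27ac). Distal regions that split by temperature ranged from 0 to 1, with 1 without mouse 10 and 1 without mouse 11. With fewer mice a full split needs fewer peaks, and other causes were not tested. The difference between the marks stayed past the threshold for Plin4, Plin1, Plin2 and Cidea in all 56 recomputed values. With each mouse as a replicate block, all 4 passed and the call of no member changed. The H3K4me1 and H3K27me3 lists were too short in several mice for a comparison of groups.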

Other observations

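Besides B430212C06Rik at the Cidea start site, 2 noncoding start sites in the windows carried H3K27ac. The antisense gene Gm44706, whose peak lay 7.2 kb upstream of Plin1, had H3K27ac in all 8 mice and H3K4me3 in 1. Its top share was 10.6%, 1.95%, 3.63% and 2.92% in the warm mice 1, 2, 7 and 8 and 1.26%, 2.59%, 4.56% and 1.29% in the cold mice 4, 5, 10 and 11. The values of the groups overlapped. The pseudogene Gm43928 had H3K27ac in 6 mice, 5.33 kb upstream of Cidec, with a top share of 11.3% to 45.4%. It had none in mice 7 and 10.

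Neighbouring protein-coding genes differed in their marks. Ticam1, near Plin3, had H3K4me3 in 8 and H3K27ac in 7 mice, and Sema6b, near Plin5, had both in 7. Jagn1, near Cidec, had H3K4me3 in 8 and H3K27ac in 5 mice, and Rpusd3 in 8 and 6. Kif7, near Plin1, had H3K4me3 in 7 mice and H3K27ac in none. Arrdc5, near Plin3, had H3K27ac in 5 mice and H3K4me3 in none. Pex11a and Wdr93, near Plin1, and Uhrf1, near Plin3, had H3K4me3 in 7 mice and H3K27ac in 2. The antisense gene 9330171B17Rik, near Plin1, had H3K4me3 in 4 mice, and Lrg1, near Plin5, had H3K4me3 in 1 and H3K27ac in 2.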
